A study of Mus musculus with 17 samples.

Results

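The 9 genes described here make the liver's machinery for turning ammonia into urea, and they were chosen by name: Nags, Cps1, Otc, Ass1, Asl, Arg1, Slc25a15, Slc25a13 and Gls2. They are 9 of the 46073 genes in the deposited table. Each matched 1 row by its Ensembl gene ID, all 9 passed the filter on low values, and none was listed at 0 in any of the 17 libraries. The libraries were made from livers of male C57BL/6 mice aged 11 or 12 weeks, taken 24 h after an injection of acetaminophen (APAP), a painkiller that injures the liver at high dose, or of saline. OE livers, labelled Nampt OE, came from 2 mice given APAP at 200 mg/kg, 1 mouse given APAP at 300 mg/kg and 2 mice given saline. Het livers, labelled Nampt +/-, came from 3 mice given APAP at 200 mg/kg and 2 given saline. WT livers, labelled Nampt +/+, came from 3 mice given APAP at 200 mg/kg, 3 given saline, and 1 given saline with the mark IG. Nampt encodes the enzyme that recycles nicotinamide towards NAD. The labels do not spell out OE and do not give the promoter, construct or line behind it.

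In the urea cycle, Cps1 in the mitochondrion joins ammonia and bicarbonate to carbamoyl phosphate, using N-acetylglutamate made by Nags as an obligatory activator, and Otc passes the carbamoyl group to ornithine to give citrulline. Slc25a15 carries ornithine in and citrulline out across the inner mitochondrial membrane, and Slc25a13 exports the aspartate that Ass1 joins to citrulline in the cytosol. Asl then releases arginine and fumarate, Arg1 splits arginine into urea and ornithine, and Gls2, the liver glutaminase, frees ammonia from glutamine inside the mitochondrion. These steps run mainly in periportal hepatocytes, while the pericentral hepatocytes, where acetaminophen is activated and does most of its damage, hold the glutamine synthetase that takes up the ammonia left over.

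The values are FPKM, which corrects for the length of a transcript and the size of a library, so levels of different genes can be set side by side. The summed FPKM of a library ranged between 466883 and 916006, and 10631 to 11496 genes reached 1 FPKM. Livers were perfused in some mice and not in others, and the libraries were spread over 5 sequencing lanes. Lane L004 held OE saline 2, OE APAP 1 and the OE liver given 300 mg/kg, lane L005 held all 3 WT APAP livers and Het APAP 2 and 3, and lane L008 held OE APAP 2, OE saline 1, Het APAP 1 and both Het saline livers. No lane held both WT APAP and WT saline livers, so lane and drug cannot be told apart in WT. Nampt itself was at 18.5 to 36.0 FPKM in OE APAP livers, 18.2 in the OE liver given 300 mg/kg and 22.4 to 27.2 in OE saline livers. It was at 11.3 to 15.4 FPKM in Het APAP and 23.0 to 26.0 in Het saline livers, against 10.9 to 16.7 in WT APAP and 15.3 to 18.0 in WT saline livers. The Het ranges of Nampt RNA did not lie below the WT ranges. Under saline both Het livers lay above the 3 WT saline livers and within the range of the OE saline livers. The WT saline liver marked IG was at 23.4 FPKM. Results are given by label. OE saline 1 stood apart from the other saline livers in genes of pericentral hepatocytes. Its glutamine synthetase, Glul, was at 101.5 FPKM, against 312.8 in OE saline 2, and the other 6 saline livers were at 320.5 FPKM or above. As in any bulk tissue, fewer hepatocytes and less RNA per hepatocyte cannot be told apart.

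Promoter windows of 250 bases before the RefSeq transcript start (build GRCm38.p6) were held for 5 of the 9 genes, Nags, Otc, Ass1, Slc25a15 and Slc25a13, and not for Cps1, Asl, Arg1 or Gls2. Slc25a15 had 2 windows, so the 5 genes had 6. Those of 3 genes that fell after APAP in Het livers (Otc, Ass1, Slc25a13) and of Nags, which did not pass the test, are shown here because the 4 genes act in the same pathway and their changes after APAP ran from a clear fall to none that passed the test. They are written 5′ to 3′ on the gene's strand, and capitals mark the letters of a searched motif on either strand.
Otc, chrX:10252055-10252304, plus strand: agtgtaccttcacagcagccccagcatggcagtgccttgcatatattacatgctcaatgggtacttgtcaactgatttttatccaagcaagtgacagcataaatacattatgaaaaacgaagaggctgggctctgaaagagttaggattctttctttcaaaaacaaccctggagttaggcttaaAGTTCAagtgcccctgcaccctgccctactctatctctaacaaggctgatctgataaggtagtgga
Ass1, chr2:31470020-31470269, plus strand: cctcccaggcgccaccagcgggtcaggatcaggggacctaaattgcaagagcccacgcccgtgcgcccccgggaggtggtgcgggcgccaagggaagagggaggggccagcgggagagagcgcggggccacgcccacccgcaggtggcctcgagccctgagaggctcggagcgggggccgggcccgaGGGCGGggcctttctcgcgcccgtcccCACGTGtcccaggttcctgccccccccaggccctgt
Slc25a13, chr6:6217174-6217423, minus strand: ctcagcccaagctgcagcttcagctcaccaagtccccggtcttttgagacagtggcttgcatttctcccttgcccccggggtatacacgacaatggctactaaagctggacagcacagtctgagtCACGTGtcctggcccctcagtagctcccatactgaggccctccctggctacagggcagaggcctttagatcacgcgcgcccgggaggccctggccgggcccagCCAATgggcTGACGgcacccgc
Nags, chr11:102145263-102145512, plus strand: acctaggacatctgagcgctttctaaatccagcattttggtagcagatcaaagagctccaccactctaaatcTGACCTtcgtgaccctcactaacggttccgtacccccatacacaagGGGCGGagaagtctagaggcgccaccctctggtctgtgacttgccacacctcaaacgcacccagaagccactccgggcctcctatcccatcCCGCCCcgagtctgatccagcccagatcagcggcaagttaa

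The motifs searched on both strands were the TATA box TATAAA, the box CCAAT, the GC box GGGCGG, the E-box CACGTG and the cAMP response half-site TGACG. The nuclear receptor half-site AGGTCA, its variant AGTTCA and the glucocorticoid half-site TGTTCT were searched in the same way. The E-box stood in 3 of the 6 windows, those of Ass1 and Slc25a13 and 1 of Slc25a15, against 6.02% of all 32851 windows of the same length. The GC box stood in 4 of the 6, those of Nags and Ass1 and both of Slc25a15, against 32.7% of all windows. The variant half-site AGTTCA stood in 2 of the 6, that of Otc and 1 of Slc25a15, against 11.8% of all windows. The box CCAAT and the cAMP half-site stood only in Slc25a13, against 33.8% and 17.8% of all windows, and AGGTCA only in Nags, against 14.0%. The TATA box, in 12.4% of all windows, and the glucocorticoid half-site, in 16.1%, had no match in the 6. The windows differed in base composition, the G and C share being 75.6% in Ass1, 62.8% in Slc25a13, 55.6% in Nags and 43.6% in Otc. A match describes the letters of a window and is not evidence of binding.

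The genes of the cycle differed widely in level. In WT saline livers Ass1 averaged 1283 ± 128 FPKM, Cps1 1014 ± 171 and Arg1 871 ± 43.9 (SD, n = 3). Asl averaged 264 ± 45.9 FPKM, Otc 218 ± 6.74 and Gls2 141 ± 16.5 in the same livers, followed by Slc25a15 at 90.9 ± 7.91, Slc25a13 at 86.0 ± 2.03 and Nags at 22.3 ± 2.11 FPKM. Neighbours in this order whose library ranges overlapped were Ass1 and Cps1, and Cps1 and Arg1, as well as Asl and Otc, and the carriers Slc25a15 and Slc25a13. Nags, whose product only has to activate Cps1, was the lowest of the 9 in all 8 groups. The 9 genes together held 0.740% ± 0.200 of the summed FPKM in OE APAP livers (SD, n = 2) and 0.772% ± 0.133 in OE saline livers (n = 2). They held 0.319% ± 0.0572 in Het APAP livers (n = 3) and 0.485% ± 0.00692 in Het saline livers (n = 2), against 0.415% ± 0.0868 in WT APAP livers (n = 3) and 0.635% ± 0.0617 in WT saline livers (n = 3).

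Most of the cycle's RNAs were lower after APAP. Averaged over the 3 genotype labels, 6 of the 9 genes fell and none rose at an adjusted p under 0.05 (limma on log2(FPKM + 1), adjusted over 11101 genes), where 13.3% of all genes tested fell. The median of the 9 log2 differences was -0.71, beside -0.02 over all genes tested. Asl fell furthest, with a log2 difference of -1.56 ± 0.27 (SE, limma adjusted p = 0.00203), and Slc25a13 came next at -1.14 ± 0.13 (limma adjusted p = 2.55e-04). Cps1 at -0.89 ± 0.23, Otc at -0.88 ± 0.17 and Ass1 at -0.71 ± 0.20 formed a middle tier, with limma adjusted p-values of 0.0155, 0.00324 and 0.0259. The ornithine carrier Slc25a15 fell less, at -0.35 ± 0.10 (limma adjusted p = 0.0250). Gls2 at -0.42, Nags at -0.21 and Arg1 at -0.08 did not pass. Without OE APAP 2, without WT saline 3 or without OE saline 2 the count was 3, the calls of Cps1, Ass1 and Slc25a15 being lost. In those fits Cps1 was at -0.85 to -0.66, Ass1 at -0.82 to -0.56 and Slc25a15 at -0.33 to -0.30. Their calls over all genes are not reported. With quantile normalisation the count was also 3 and the same calls were lost, Cps1 being at -0.68, Ass1 at -0.52 and Slc25a15 at -0.044, while Arg1 turned to 0.11. No perfusion-matched or lane-matched form of this average could be made.

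**Figure D1:**
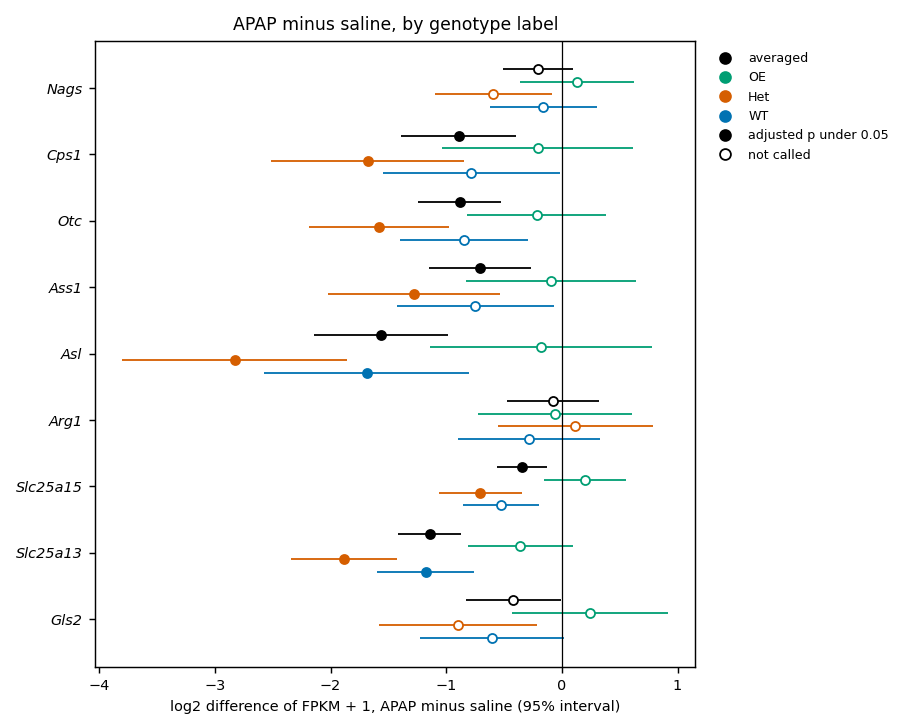
APAP minus saline for each gene as the log2 difference of FPKM + 1 (horizontal axis) with its 95% interval, averaged over labels and in OE, Het and WT livers; filled points have a limma adjusted p under 0.05. The Het values of Asl (-2.83), Slc25a13 (-1.88), Cps1 (-1.68) and Otc (-1.58) lie furthest to the left, and all 9 OE intervals cross 0.

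Het livers carried the clearest fall. Of the 9 genes, 6 fell and none rose, where 13.1% of all genes tested fell, and the median log2 difference was -1.28, beside -0.06 over all genes. For 8 of the 9 genes, every APAP liver lay below every Het saline liver, Arg1 being the exception. How many of all genes separated in this way was not counted, here or for the later counts of livers that did not overlap. The 6 called here are those called in the average.

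Asl, which releases arginine, was at 77.1, 91.2 and 50.05 FPKM in Het APAP livers, against 380.5 and 340.1 in Het saline livers. The 3 APAP livers were all far below both saline livers, a log2 difference of -2.83 ± 0.45 (limma adjusted p = 0.00183). Slc25a13, the aspartate carrier, was at 29.4, 38.8 and 31.4 FPKM in Het APAP livers, against 106 and 108 in Het saline livers, -1.88 ± 0.21 (limma adjusted p = 4.56e-04). Asl and Slc25a13 had the largest falls of the 9 both here and in WT livers. The other cytosolic enzymes, Ass1 at -1.28 and Arg1 at 0.12 in Het livers, did not share falls of this size.

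The mitochondrial enzymes Cps1 and Otc fell as well. Cps1, which commits ammonia to the cycle, was at 403, 284 and 220.4 FPKM in Het APAP livers, against 863 and 859 in Het saline livers, -1.68 ± 0.38 (limma adjusted p = 0.00987). Otc was at 69.4, 43.8 and 41.7 FPKM in Het APAP livers, against 169 and 176 in Het saline livers, -1.58 ± 0.28 (limma adjusted p = 0.00284). For both genes Het APAP 1, the only perfused liver of its group and the only one from lane L008, was the highest of the 3 APAP livers and still well below the saline livers.

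Ass1, which joins citrulline to aspartate, was at 426, 274 and 230.4 FPKM in Het APAP livers, against 848 and 868 in Het saline livers, -1.28 ± 0.34 (limma adjusted p = 0.0197). Slc25a15 was at 52.9, 49.6 and 52.8 FPKM in Het APAP livers, against 75.6 and 82.3 in Het saline livers, a smaller but tight difference of -0.71 ± 0.17 (limma adjusted p = 0.0110). Gls2 was at 47.2, 37.4 and 41.7 FPKM in Het APAP livers, against 88.3 and 80.7 in Het saline livers, and missed the threshold at -0.89 ± 0.31 (limma adjusted p = 0.0601). Its groups did not overlap.

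Nags and Arg1 did not pass in Het livers either. Nags, which makes the activator of Cps1, was at 21.4, 23.5 and 16.2 FPKM in Het APAP livers, against 26.1 and 27.2 in Het saline livers, -0.59 ± 0.23 (limma adjusted p = 0.0867). The Nags groups did not overlap, and its 95% interval ran from -1.09 to -0.09. Arg1 was at 815, 1117 and 582 FPKM in Het APAP livers, against 826 and 726 in Het saline livers, 0.12 ± 0.31 (limma adjusted p = 0.824). The Arg1 values of the APAP livers lay on both sides of the saline livers, and the 95% interval of -0.55 to 0.79 leaves room for a change of moderate size either way. Without Het APAP 2, the highest Arg1 liver of the group, the log2 difference was -0.07.

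All Het saline livers were perfused and came from lane L008, whereas 2 of the 3 Het APAP livers were not perfused and came from lane L005. Within perfused livers, Het APAP 1 alone was set against the 2 Het saline livers, all of lane L008. There Asl differed by -2.21, Slc25a13 by -1.83, Otc by -1.30, Cps1 by -1.09 and Ass1 by -1.01 on the log2 scale, with the lone APAP liver assumed to vary like the perfused WT saline and Het saline pairs. With lane in place of perfusion as the covariate the count was 3, and it was also 3 without Het saline 1 or without Het saline 2. In each of these fits the calls of Cps1, Ass1 and Slc25a15 were lost and those of Asl, Slc25a13 and Otc were not.

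**Figure D2:**
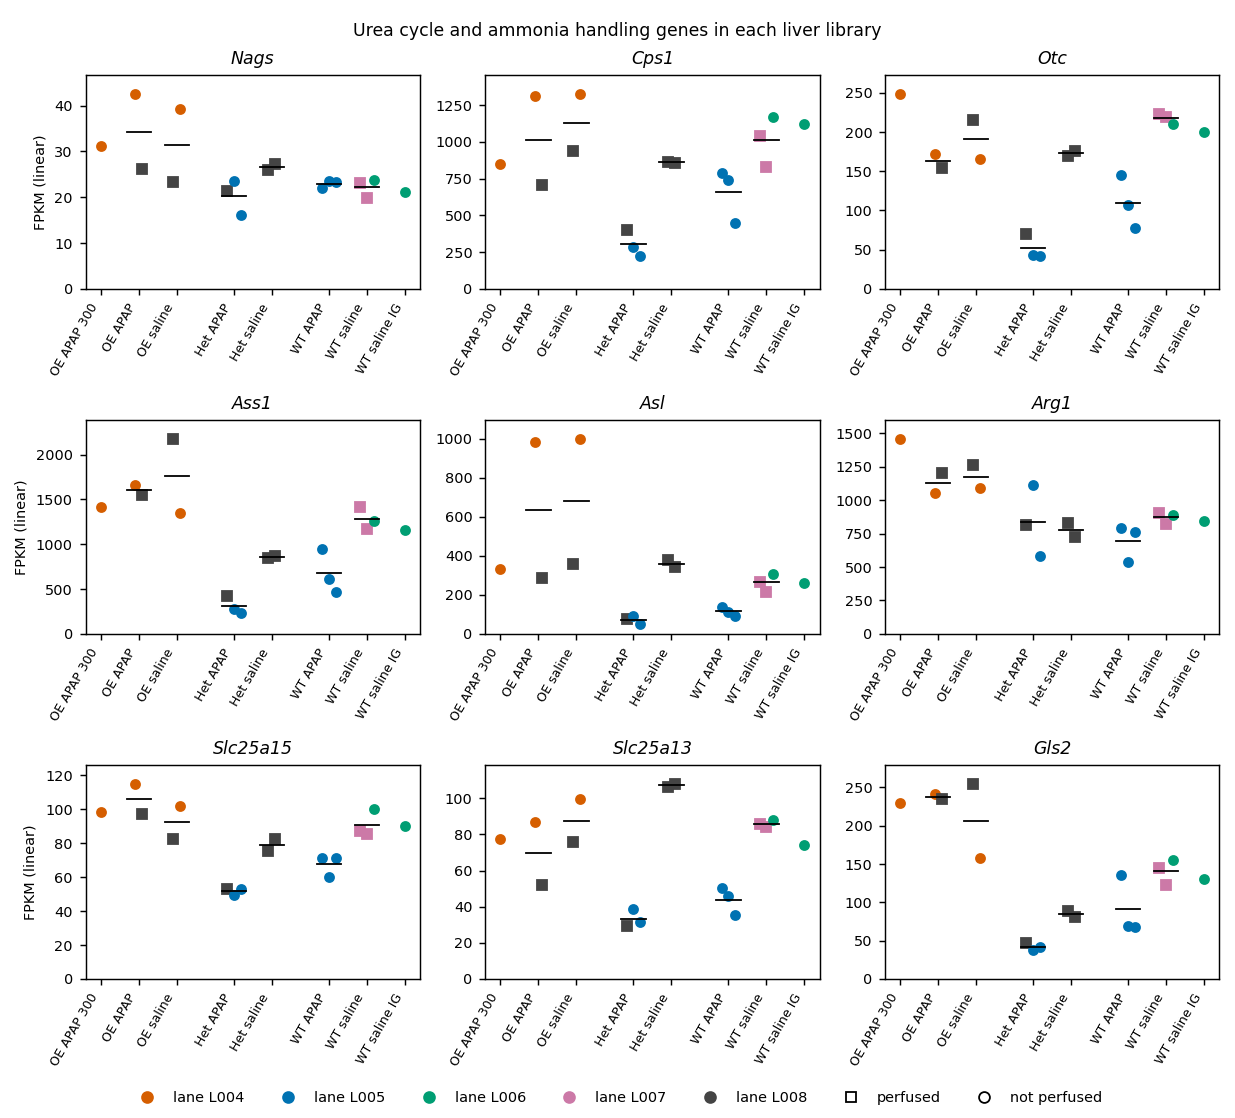
FPKM (vertical axis, linear, from 0) of each gene in all 17 libraries by group, APAP left of saline for each label; bars mark means of groups with more than 1 liver, colours the sequencing lane, squares perfused livers and circles livers not perfused. The 3 Het APAP livers lie below both Het saline livers for every gene but Arg1, while OE APAP and OE saline livers overlap for all 9.

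In WT livers the same direction was seen with fewer calls. Asl and Slc25a13 fell, 2 of 9, where 3.55% of all genes tested fell, and none of the 9 rose. Over all genes tested 217 were higher and 394 lower in WT APAP livers, and with quantile normalisation 235 were higher and 246 lower. Asl was at 139, 113 and 94.0 FPKM in WT APAP livers, against 266, 217 and 309 in WT saline livers, -1.69 ± 0.41 (limma adjusted p = 0.0333). Slc25a13 was at 50.6, 45.9 and 35.5 FPKM in WT APAP livers, against 86.0, 83.9 and 88.0 in WT saline livers, -1.18 ± 0.19 (limma adjusted p = 0.00907). Every WT APAP liver lay below every WT saline liver for 7 of the 9 genes, a separation not counted over all genes. They were Asl and Slc25a13, and also Cps1, Otc, Ass1, Arg1 and Slc25a15, but those last 5 did not pass the test.

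Among them Otc was at 145, 108 and 77.3 FPKM in WT APAP livers, against 223, 219.6 and 210.4 in WT saline livers, -0.85 ± 0.25 (limma adjusted p = 0.0705). Ass1 was at 943, 616 and 465 FPKM in WT APAP livers, against 1419.6, 1167 and 1262 in WT saline livers, -0.75 ± 0.31 (limma adjusted p = 0.174). The saline livers were close together for both genes and the APAP livers were spread widely, WT APAP 1 being the highest and WT APAP 3 the lowest of the 3. The same order held for Cps1, at 788, 738 and 446 FPKM in WT APAP livers against 1040.4, 831 and 1169 in WT saline livers, -0.78 ± 0.35 (limma adjusted p = 0.207).

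Slc25a15 was at 71.5, 60.3 and 71.2 FPKM in WT APAP livers, against 87.5, 85.2 and 99.9 in WT saline livers, -0.53 ± 0.15 (limma adjusted p = 0.0592). Arg1, the last enzyme of the cycle, was at 790.5, 539 and 761 FPKM in WT APAP livers, against 904, 821 and 888 in WT saline livers, -0.29 ± 0.28 (limma adjusted p = 0.595). Gls2 and Nags overlapped between the WT groups: Gls2 was at 68.1 to 135 FPKM in WT APAP livers and 123 to 156 in WT saline livers, and Nags at 21.9 to 23.6 FPKM in WT APAP livers and 19.9 to 23.7 in WT saline livers. The WT saline liver marked IG, which was counted with the other WT saline livers only where rare labels were pooled, lay within the range of the other WT saline livers for 6 of the 9 genes and below it for Otc at 199.9 FPKM, Ass1 at 1158 and Slc25a13 at 74.2.

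The call of Asl in WT livers was easily lost. Slc25a13 alone passed, a count of 1, without any single WT saline, Het saline or OE saline liver, and without WT APAP 2 or WT APAP 3. Without WT APAP 1 the count was 4, with Otc and Gls2 added, and without Het APAP 1 it was 4, with Otc and Slc25a15 added. Calls over all genes in these fits are not reported, so the counts have no share beside them. Within livers that were not perfused no member was called, Asl differing by -1.31 and Slc25a13 by -0.88 on the log2 scale. That comparison pools the rare labels and rests on the 3 WT APAP livers against WT saline 3 and the liver marked IG.

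In OE livers no change of any of the 9 genes was detected. None was called, where 0% of all genes tested were called, and none had an unadjusted p under 0.05, which 533 of the 11101 genes had. The 9 log2 differences ran between -0.36 for Slc25a13 and 0.24 for Gls2, with a median of -0.09 beside 0.00 over all genes. The intervals were wide, with 2 livers in each group: that of Asl ran from -1.14 to 0.78, that of Cps1 from -1.04 to 0.62 and that of Otc from -0.82 to 0.38. That of Slc25a13 ran from -0.81 to 0.09. Without OE saline 1 the count was also 0, with log2 differences between -0.64 for Asl and 0.58 for Gls2.

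The 2 livers of each OE group differed strongly from each other. Asl was at 982 and 285 FPKM in OE APAP livers, against 359 and 998 in OE saline livers. Cps1 was at 1309.8 and 708 FPKM in OE APAP livers, against 938 and 1325 in OE saline livers. OE APAP 1 and OE saline 2, both from lane L004 and not perfused, were the high livers for these genes and for Nags, at 42.5 and 39.3 FPKM, the highest Nags values of the 17 libraries.

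The ratio of OE APAP 1 to OE APAP 2 was 3.44 for Asl, 1.85 for Cps1, 1.66 for Slc25a13 and 1.63 for Nags, and that of OE saline 2 to OE saline 1 was 2.78 for Asl. For Ass1 and Gls2 the lanes sorted otherwise. Ass1 was at 1666 and 1552 FPKM in OE APAP livers, against 2174 and 1354 in OE saline livers, and Gls2 at 241 and 235 in OE APAP livers, against 254 and 158 in OE saline livers. In both genes OE saline 1, the library with low pericentral genes, was the highest of all 17, and the 2 OE APAP livers differed little.

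The carriers and Otc also overlapped between the OE groups. Slc25a13 was at 86.9 and 52.3 FPKM in OE APAP livers, against 76.0 and 99.4 in OE saline livers, and Slc25a15 at 115 and 97.1 in OE APAP livers, against 82.7 and 102 in OE saline livers. Otc was at 172 and 154 FPKM in OE APAP livers, against 216 and 166 in OE saline livers. For none of the 9 genes were the OE APAP livers all above or all below the OE saline livers.

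The tests of the differences between these responses were not passed by any member. For OE minus Het, 0 of 9 were called, where 0.018% of all genes tested were, and the lowest limma adjusted p among the 9 was 0.0838, for Slc25a13 with a difference of 1.52 ± 0.30. Asl had 2.65 ± 0.63 and Slc25a15 0.91 ± 0.23, each with a limma adjusted p of 0.102. Without Het APAP 1 the count was 5, and without WT APAP 3 it was 1. Calls over all genes in those fits are not reported, so these counts have no share beside them. For Het minus WT and for OE minus WT, 0 of 9 were called, where 0% of all genes were, with 916 and 664 genes at an unadjusted p under 0.05. The responses of the 3 labels were thus not shown to differ, although every member but Arg1 had its most negative value in Het livers. A miss in OE livers beside calls in Het livers is not such a test.

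Levels after APAP were compared directly between labels. For OE against Het, 8 of the 9 genes were higher in OE livers and none was lower, where 8.72% of all genes tested were higher. Over all genes 968 were higher and 544 lower, and with quantile normalisation 652 were higher and 610 lower. The 2 OE livers lay above all 3 Het livers for those 8 genes, a separation not counted over all genes, and Arg1 overlapped. The median log2 difference of the 9 was 1.63, beside 0.05 over all genes.

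The largest differences were in Asl, at 3.01 ± 0.41 (limma adjusted p = 0.00388), and in the glutaminase Gls2, at 2.45 ± 0.29 (limma adjusted p = 0.00291). Ass1 followed at 2.36 ± 0.31 (limma adjusted p = 0.00363), then Cps1 at 1.74 ± 0.35 and Otc at 1.63 ± 0.25 (limma adjusted p = 0.0108 and 0.00505). The carriers Slc25a13 and Slc25a15 were higher by 1.06 ± 0.19 and 1.04 ± 0.15 (limma adjusted p = 0.00761 and 0.00471). Nags was higher by 0.75 ± 0.21 (limma adjusted p = 0.0359), and Arg1, at 0.46 ± 0.28, did not pass (limma adjusted p = 0.295).

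**Figure D3:**
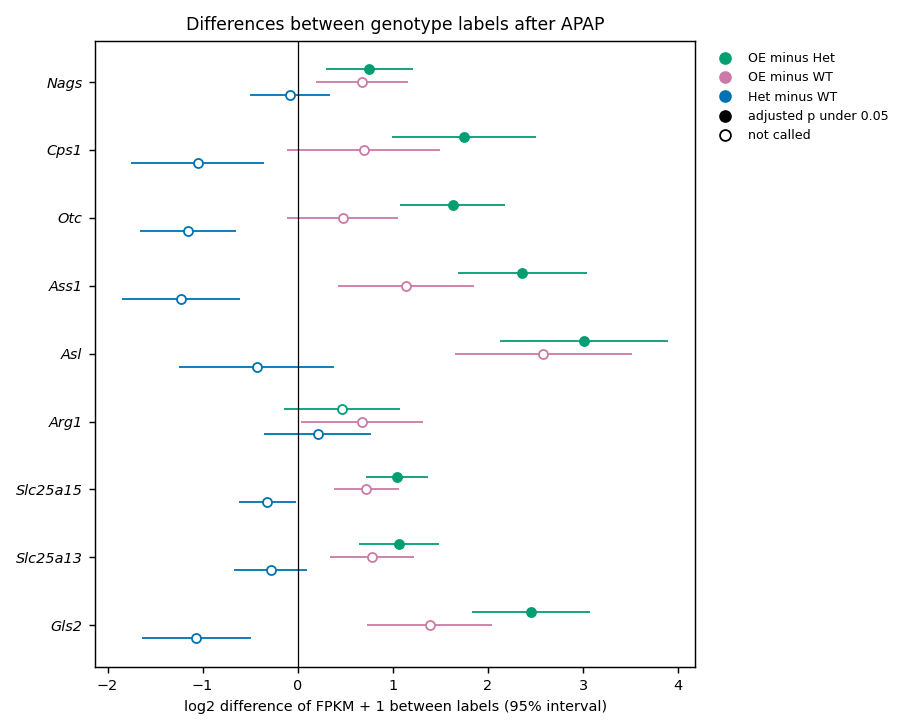
Differences between labels after APAP for each gene as the log2 difference of FPKM + 1 (horizontal axis) with its 95% interval; filled points have a limma adjusted p under 0.05. OE minus Het is called for every gene but Arg1, and OE minus WT and Het minus WT for none of the 9.

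These calls depended on 1 library. Without OE APAP 1 the count was 0 of 9, with log2 differences of 2.31 for Asl, 2.33 for Gls2, 2.05 for Ass1, 1.34 for Otc and 1.27 for Cps1, and only 5 of the 11101 genes were called. With lane in place of perfusion the count was also 0, with differences of 1.95 for Asl, 2.47 for Gls2 and 2.06 for Ass1. Within perfused livers, all of lane L008, OE APAP 2 could be set only against Het APAP 1, the ratio of their FPKM being 4.97 for Gls2, 3.70 for Asl, 3.64 for Ass1, 2.21 for Otc and 1.22 for Nags. All 9 genes were higher in OE APAP 2 than in Het APAP 1, in a comparison of 1 liver with 1 that has no replicate check.

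Against WT livers after APAP, no member passed in either label. For OE minus WT, 0 of 9 were called, where 0.00901% of all genes tested were, with 1910 genes at an unadjusted p under 0.05. The 2 OE livers lay above all 3 WT livers for 8 of the 9 genes, Cps1 being the exception. How many of all genes separated in this way was not counted, so that count has no share beside it. Asl came closest to passing at 2.58 ± 0.43 (limma adjusted p = 0.0942), followed by Gls2 and Slc25a15 (both limma adjusted p = 0.118). Asl was called without WT APAP 1 (with Gls2, a count of 2), and alone, a count of 1, without Het APAP 1, without OE APAP 2 and without WT saline 3. Calls over all genes in those fits are not reported. For Cps1 the difference of 0.69 turned to -0.03 without OE APAP 1 and OE saline 2, and to -0.44 with lane in place of perfusion.

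For Het minus WT after APAP, 0 of 9 were called, where 0.054% of all genes were, with 2119 genes at an unadjusted p under 0.05. The 3 Het livers lay below all 3 WT livers for 6 genes, Cps1, Otc, Ass1, Asl, Slc25a15 and Gls2, a separation not counted over all genes. Otc at -1.16 ± 0.23 (limma adjusted p = 0.0579), Ass1 at -1.22 ± 0.29 (limma adjusted p = 0.0660), Gls2 at -1.07 ± 0.26 (limma adjusted p = 0.0714) and Cps1 at -1.05 ± 0.32 (limma adjusted p = 0.108) came closest. Arg1 was at 0.21 ± 0.26, with overlapping livers.

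This comparison was sensitive in the other direction. With lane in place of perfusion those 4 genes were called, as they were without WT APAP 3. Without Het APAP 1 the count was 3, with Cps1, Otc and Ass1, and without WT saline 3 it was 2, with Otc and Ass1. Calls over all genes moved as well, from 6 in the main fit to 88 with quantile normalisation. Those of the fits named here are not reported, so these member counts have no share over all genes beside them. In lane L005 alone, the mean of Het APAP 2 and 3 was 0.374 times that of the 3 WT APAP livers for Ass1, 0.384 times for Cps1, 0.388 times for Otc, 0.436 times for Gls2 and 1.22 times for Arg1.

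Under saline no member passed in any pair of labels. The share of all genes tested that were called was 0.00901% for OE minus Het, 0.036% for OE minus WT and 0.036% for Het minus WT, with 591, 661 and 1314 genes at an unadjusted p under 0.05. Gls2 and Ass1 had the largest differences between OE and Het saline livers, 1.31 ± 0.33 and 1.17 ± 0.36, with limma adjusted p-values of 0.694 and 0.885. Both OE saline livers, and all 3 WT saline livers, lay above both Het saline livers for these 2 genes. Within perfused livers of lane L008, OE saline 1 alone was 2.53 times the mean of the 2 Het saline livers in Ass1, 3.01 times in Gls2 and 1.62 times in Arg1, with no replicate on the OE side. Slc25a13 went the other way in saline livers, at 76.0 and 99.4 FPKM in OE and 106 and 108 in Het livers, against 86.0, 83.9 and 88.0 in WT livers. Both Het saline livers lay above all 3 WT saline livers for 3 genes, Asl, Nags and Slc25a13, and below them for 4. Such separation was not counted over all genes.

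The OE liver given 300 mg/kg entered no test of the main comparisons, and was counted with the 200 mg/kg livers only where rare labels were pooled. Its Otc, at 248 FPKM, and its Arg1, at 1457 FPKM, were the highest of the 17 libraries. Its Asl, at 331 FPKM, lay near the OE livers of lane L008 although it came from lane L004, and its Ass1, at 1411 FPKM, and Gls2, at 230.0, lay within the OE saline range. Its Cps1, at 849 FPKM, lay below both OE saline livers. With 1 liver at that dose, the effect of dose was not tested.

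Across the 17 libraries most members varied together, and the lowest Pearson correlations were those of Arg1 with Cps1 and Slc25a13. Pearson correlations of log2(FPKM + 1), which share the libraries, their scaling and the drug, were 0.96 between Ass1 and Gls2, 0.93 between Otc and Ass1, 0.92 between Cps1 and Otc, and 0.90 between Cps1 and Ass1. Arg1 had 0.32 with Cps1, 0.33 with Slc25a13 and 0.40 with Otc, and no value above 0.64. Nags had 0.40 with Otc, 0.65 with Slc25a15 and 0.82 with Asl, and Slc25a13 had 0.63 with Gls2 and 0.87 with Asl. By Spearman rank correlation Ass1 with Gls2 had 0.97, Otc with Ass1 0.74, Cps1 with Otc 0.68 and Cps1 with Ass1 0.70. Nags with Otc had the lowest rank value, 0.21, below every value of Arg1, which had 0.69 with Ass1. Asl spanned the widest range of the 9, its highest library having 19.9 times the FPKM of its lowest, against 2.70 times for Arg1, 2.63 times for Nags and 2.32 times for Slc25a15.

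**Figure D4:**
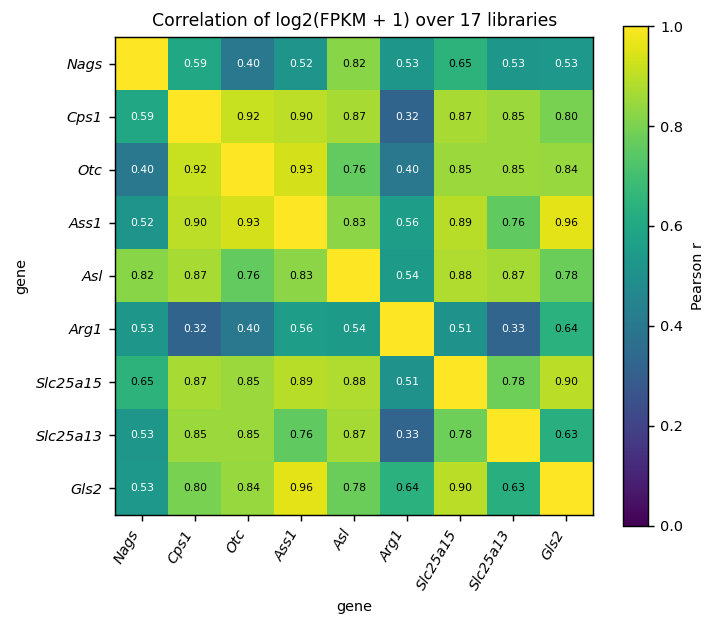
Pearson correlation of log2(FPKM + 1) between each pair of the 9 genes over 17 libraries, genes on both axes and colour running from 0 to 1. The pairs among Cps1, Otc, Ass1, Slc25a15 and Gls2 lie at 0.80 and above, and the row of Arg1 at 0.64 and below.

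The genes whose levels followed each member most closely over the 17 libraries were ranked by Pearson correlation among 6212 candidate genes. For Slc25a13 they were Cmbl (0.99) and Decr2 (0.99), for Otc Hibadh (0.99) and Marc1 (0.99), and for Cps1 Dmgdh (0.97) and Aldh7a1 (0.97). Asl was followed by Ahcy (0.97), the hydrolase of S-adenosylhomocysteine, and Cth (0.96), the cystathionine lyase, and Gls2 by Gpat4 (0.95) and Agxt (0.95). The closest genes to Arg1 were Cox7b (0.87), a subunit of a respiratory chain complex, and Atp5j2 (0.84), a subunit of the ATP synthase. The closest to Nags was Ppa1 (0.91). Closest matches were looser for Arg1 and Nags than for the other members named here.

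Of the 6 lists of genes around the cycle, 5 had more members that fell than rose in the average over labels, and the glucagon and glucocorticoid responsive genes had more that rose. The counts stand beside the 13.3% of all genes tested that fell and the 9.79% that rose. Of 10 enzymes where nitrogen enters, 4 fell and 2 rose. Glutamine synthetase Glul (-3.39 ± 0.25), the alanine aminotransferases Gpt (-1.18 ± 0.18) and Gpt2 (-0.74 ± 0.12), and Got2 fell, while asparagine synthetase Asns rose (1.62 ± 0.31). Of 17 tested enzymes of ornithine, arginine, proline and polyamines, 8 fell and 1 rose. Proline dehydrogenase Prodh (-1.93 ± 0.19), ornithine aminotransferase Oat (-2.19 ± 0.32) and Prodh2 (-0.93 ± 0.15) fell, and Aldh18a1, which makes the precursor of proline and ornithine, rose by 1.02 ± 0.14.

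Of 16 tested transporters and mitochondrial helpers 7 fell and 2 rose, among them the ammonia channel Rhbg (-1.52 ± 0.13), the glutamate transporter Slc1a2 (-3.06 ± 0.40), the dicarboxylate carrier Slc25a10 (-1.08 ± 0.14) and the deacetylase Sirt3 (-0.67 ± 0.11). Of 13 tested enzymes that release ammonia from amino acids 6 fell and none rose, among them Cth (-1.49 ± 0.24), Shmt1 (-1.19 ± 0.21), Ftcd (-0.68 ± 0.17) and histidase Hal (-0.79 ± 0.20). Of 16 regulators of urea cycle genes 4 fell and none rose, namely Creb3l3 (-0.75 ± 0.11), Cebpa (-0.92 ± 0.16), the glucagon receptor Gcgr (-0.50 ± 0.12) and Foxa2 (-0.59 ± 0.19). Of 10 genes that respond to glucagon and glucocorticoid 3 rose and 1 fell: Igfbp1 (3.31 ± 0.89), Sik1 (0.86 ± 0.19) and Fkbp5 (0.66 ± 0.15) rose, and the tryptophan oxygenase Tdo2 fell (-0.73 ± 0.15). In OE livers no gene of these lists was called, where 0% of all genes tested were, so this says nothing particular to the lists.

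The same lists were counted in the comparison of OE with Het livers after APAP, where 8.72% of all genes tested were higher. The enzymes of nitrogen entry had 6 of 10 higher and none lower, the transporters and helpers 8 of 16, the ammonia-releasing enzymes 9 of 13 and the regulators 6 of 16, each with none lower. The ornithine and proline list had 8 of 17 higher and 1 lower, Aldh18a1 at -0.69 ± 0.21, and of the 10 hormone-responsive genes 2 were higher, Tat and Tdo2, with a median log2 difference of -0.19 over the list. As for the cycle itself, these calls rested on OE APAP 1, without which 5 of all 11101 genes were called in this comparison.

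Markers of cell types were counted in the same way, beside the 13.3% of all genes tested that fell and the 9.79% that rose in the average. Of 16 tested periportal hepatocyte markers other than the 9 genes, 5 fell and 1 rose in the average, and of 18 tested pericentral markers 15 fell and none rose, 4 of which (Glul, Rhbg, Slc1a2 and Oat) are also in the lists above. Summed FPKM of the periportal list ran over 4243 to 4509 in OE APAP and 2520 to 4247 in OE saline livers, 1641 to 1744 in Het APAP and 2382 to 3363 in Het saline livers, and 1853 to 2432 in WT APAP and 2618 to 3121 in WT saline livers. Summed FPKM of the pericentral list was 1519 to 2001 in OE APAP and 2411 to 6300 in OE saline livers, 344 to 1298 in Het APAP and 5768 to 5797 in Het saline livers, and 919 to 2180 in WT APAP and 5274 to 5513 in WT saline livers. Alb, which is on the periportal list and on that of genes that define hepatocytes, was listed at 0 in all libraries. That is taken as a failed estimate and not as a level, and the sums of both lists lack it. Of 17 tested genes that define hepatocytes 8 fell and 1 rose in the average, among them Hpd (-1.50 ± 0.31). Their summed FPKM was 34295 to 34416 in OE APAP and 35494 to 41892 in OE saline livers, 18307 to 24813 in Het APAP and 38352 to 38815 in Het saline livers, and 20731 to 29592 in WT APAP and 35600 to 38606 in WT saline livers. Every liver given 200 mg/kg thus had a lower hepatocyte sum than every saline liver of its label. The OE groups lay close together, with 34416 in OE APAP 1 against 35494 in OE saline 2. The OE liver given 300 mg/kg was at 38928, above OE saline 2. No gene of this list was called in OE livers, where 0% of all genes tested were. The part of these sums in the values of the 9 genes was not tested.

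In the average over labels 9.79% of all genes tested rose and 13.3% fell. Of 13 tested monocyte and macrophage markers 8 rose and none fell in the average, led by Chil3, Cd68, Lgals3 and Trem2. Their summed FPKM was 72.4 to 164 in OE APAP and 58.1 to 136 in OE saline livers, 247 to 377 in Het APAP and 94.2 to 143 in Het saline livers, and 105 to 348 in WT APAP and 70.4 to 117 in WT saline livers. Arg1 is made by some macrophages as well as by hepatocytes, and the part of these cells in the Arg1 values was not tested. Of the other lists, neutrophil markers had 3 of 4 higher, stellate and fibroblast markers 5 of 12 higher and 3 lower, endothelial markers 1 of 12 higher and 2 lower, cholangiocyte markers 1 of 3 higher, and erythroid genes 1 of 6 lower. No Kupffer cell marker of 10 was called, and none of 9 lymphocyte markers passed the filter. The endothelial, cholangiocyte and erythroid counts are too small to be set apart from the shares over all genes.

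All 9 rows stand for genes placed on GRCm38 in GENCODE M21, and none was among the 96 rows left out as failed estimates. Cps1 lies on chromosome 1 at 67123026 to 67231259, Ass1 on chromosome 2 at 31470207 to 31520672, Asl on chromosome 5 at 130011258 to 130029247 and Slc25a13 on chromosome 6 at 6041218 to 6217173. Slc25a15 lies on chromosome 8 at 22375551 to 22398597, Arg1 on chromosome 10 at 24915221 to 24927484, Gls2 on chromosome 10 at 128194457 to 128210004, Nags on chromosome 11 at 102145513 to 102149477, and Otc on chromosome X at 10252305 to 10321024. Nags overlaps the antisense gene Gm11586 and Gls2 overlaps Spryd4 on the other strand. The kit was stranded but the strand setting of the counting is not given in the sources used here, so some reads of these 2 genes may belong to their partners. The pseudogene Ass-ps1, which resembles Ass1, was listed at 0 in 16 libraries and at 0.0285 FPKM in Het APAP 2.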

How the data were processed

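RNA of 17 mouse livers was sequenced as paired ends after stranded total RNA preparation, per the labels' protocols. The submitters' processing notes name bcl2fastq 2.17.1.14 and TopHat2 2.0.9 on GRCm38 p5, with Cufflinks 2.2.1 and Cuffdiff. The table the authors deposited gives 1 FPKM value per gene and library, made with the Cufflinks tools, per the submitters' processing notes. The unit was inferred from those tools and the values, since no header names it. FPKM keeps no read counts, so depth is unknown and no counting interval was given.

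The 9 genes, the gene lists and the tests were chosen with earlier results of these data known. Rows at exactly 0 throughout a genotype and drug block (6 blocks) with a mean of at least 10 FPKM in the other libraries were left out as failed estimates, as were rows within 100 kb of them at 0 in the same blocks, 96 in all and none of the 9. That rule was chosen after seeing the data. The 11101 genes averaging 1 FPKM or more were tested as log2(FPKM + 1) with limma 3.58.1 in R 4.3.3. Log2 differences are on that scale, which shrinks changes of low genes. The fit held 8 group means and a perfusion term, a trended and robust variance prior, and 8 residual degrees of freedom, with Benjamini-Hochberg adjustment over all genes tested and a threshold of 0.05. The averaged response weights the 3 labels equally and leaves out the livers given 300 mg/kg or marked IG. The procedure was tested on simulated data. Only the labels mark the libraries of a group as separate samples, and p-values measure the spread between them, which may be technical.

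Named genes were the 9, Nampt, up to 4 genes of each list with the smallest p in the averaged response among those that passed, all genes of a list where 5 or fewer passed in another comparison used, and the closest patterns by Pearson correlation over 17 libraries. Got2 was named after its values were seen. Some genes of the lists are not reported here. The alternatives tried were the pseudocount, the filter, the scaling, the covariate, array weights, rare labels pooled (IG as saline, 300 mg/kg as APAP, also in fits of non-perfused livers), fits of fewer libraries, and leaving out each replicate.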

Additional observations from a re-analysis of the deposited data

Results flagged for a closer look

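The OE liver given 300 mg/kg APAP entered no comparison other than fits with rare labels pooled, and 2 of the 9 genes were above both OE saline livers in it. Otc was at 248.47 FPKM there, against 215.7 and 166.0 FPKM in OE saline livers. Arg1 was at 1456.95 FPKM, against 1259.98 and 1091.21 FPKM in OE saline livers. The dose, the single liver and lane L004 go together, and their parts cannot be told apart. The other 7 genes did not exceed both OE saline livers.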

How the results depend on the processing

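Each result was recomputed under up to 29 alternatives, 15 of them leaving out 1 replicate. Of 1755 recomputed values of the members, 1579 kept direction and side of the threshold, 92 lost and 50 gained a call, and 34 changed sign, none of a gene called in that comparison. Calls of members in the averaged response were 3 with quantile normalisation. In WT livers they were 1 without a filter, with quantile normalisation and without OE saline 2 and OE APAP 1, 4 with rare labels pooled, and 0 with only the groups compared or only non-perfused livers. In Het livers they were 3 with lane in place of perfusion or only the groups compared. Under saline they were 2 for Het minus WT with array weights, 1 for OE minus WT in perfused livers, and for OE minus Het 2 with only the groups compared and 3 in perfused livers. For Het minus WT after APAP they were 1 with a pseudocount of 0.1 or a mean of at least 5 FPKM, 2 with quantile normalisation, and 4 with lane in place of perfusion or array weights. For OE minus WT they were 2 with rare labels pooled. For OE minus Het they were 0 with lane in place of perfusion or without OE saline 2 and OE APAP 1, and 1 with only the groups compared. For differences of response they were 2 with array weights (Het minus WT), and 2 with rare labels pooled and 2 in perfused livers (OE minus Het). Fits with rare labels pooled, and those of non-perfused livers, counted the IG liver as WT saline and the 300 mg/kg liver as OE APAP. In perfused livers the lone OE APAP, Het APAP and OE saline livers were assumed to vary like the WT and Het saline pairs. Calls over all genes moved between alternatives too, and are not given beside most of these counts. The causes were not tested.

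With 1 replicate left out at a time, the counts ran over 3 to 7 in the averaged response, 1 to 4 in WT, 3 to 7 in Het and 0 to 0 in OE livers. They ran over 0 to 4 for Het minus WT, 0 to 2 for OE minus WT and 0 to 8 for OE minus Het after APAP, 0 to 5 for the difference of response OE minus Het, and 0 to 0 for the other differences of response and the 3 comparisons under saline.

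Signs changed in the averaged response for Arg1, at 0.11 with quantile normalisation. In WT livers Nags was at 0.045 without the perfusion term, 0.031 in non-perfused livers and 0.040 without OE saline 2 and OE APAP 1. In Het livers Arg1 was at -0.087 with array weights and ran over -0.073 to 0.29 with 1 replicate left out. In OE livers the ranges with 1 replicate left out were -0.13 to 0.40 for Nags, -0.65 to 0.23 for Cps1, -0.49 to 0.051 for Otc, -0.38 to 0.19 for Ass1, -0.84 to 0.48 for Asl, -0.14 to 0.023 for Arg1 and -0.097 to 0.58 for Gls2. In non-perfused OE livers, where OE APAP 1 and the liver given 300 mg/kg were pooled over both doses and set against OE saline 2, Nags was at -0.11, Otc at 0.31, Ass1 at 0.18 and Arg1 at 0.18. With rare labels pooled Otc was at 0.012 and Arg1 at 0.070, and with quantile normalisation Ass1 was at 0.076 and Arg1 at 0.084. Gls2 was at -0.12 in perfused OE livers and without OE saline 2 and OE APAP 1. For Het minus WT after APAP the ranges with 1 replicate left out were -0.22 to 0.17 for Nags, -0.74 to 0.020 for Asl and -0.092 to 0.49 for Arg1, which was at -0.00708 with array weights. For OE minus WT after APAP, Cps1 was at -0.44 and Otc at -0.031 with lane in place of perfusion, and Cps1 at -0.027 without OE saline 2 and OE APAP 1.

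No paired analysis was possible because the labels give the groups no shared replicate numbers, and the numbers used here only name libraries in deposit order. Lane in place of perfusion gave no value for comparisons that include WT saline, and fits of perfused or non-perfused livers alone gave none where a group had no such liver. Depth is unknown, and 2 livers in several groups limit the precision.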
